A study of Mus musculus with 31 samples.

Results

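Colon bacteria of top-ranked mice that went through the tube were set against those of all mice of lower rank. The comparison used 25 of the 31 libraries of the series, 6 labelled Go-through-tube, Rank1 and 19 labelled with a lower rank alone (7 of Rank2, 6 of Rank3 and 6 of Rank4). Libraries were grouped by these labels, and the comparison was chosen with earlier results of these data known. All 10 amplicon sequence variants (ASVs) listed for these libraries were included. All libraries were made from colon contents, the mice were male and 6 to 8 weeks old, and the labels give no strain, cage or social history. The Rank1 titles name the go-through-tube treatment and the titles of the lower ranks name none, so a difference of rank and a difference of treatment cannot be told apart here. The labels do not state that each library is a separate mouse, so p-values measure the spread between libraries.

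In the tube test, 2 mice enter a narrow tube from opposite ends and the one that pushes the other out is counted as the dominant animal. Repeating the test within a cage gives each mouse a rank. The bacteria of the colon ferment fibre and host mucus, and their make-up is read by sequencing the 16S rRNA gene, which every bacterium carries. An ASV is an exact 16S sequence, which several strains or species can share. Many ASVs are found in some mice and not in others of the same colony, so carriage (any reads in a library) is described beside the amount. Of the listed ASVs only ASV614 has a taxonomic name in the files, Oscillibacter of the Oscillospiraceae (phylum Firmicutes), a genus of strictly anaerobic gut bacteria. The other 9 have no name here, so no role is given for them.

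The 10 ASVs held 86 to 749 reads per Rank1 library and 88 to 793 reads per lower-rank library. These sums are not the depth of the libraries, because only chosen ASVs are listed. The Rank1 libraries are also in the table of the other experiment. The 25 ASVs listed in either table summed to between 952 and 3083 reads in them, which is the least their depth can be. The fractions given for that experiment imply a common total of 480358 reads over 12 libraries, a mean of 40030. How this total divides over the libraries is not known here. Among the 250 values listed by rank, 132 (52.8%) were 0, and the smallest value above 0 was 2 reads. A count is relative to the other reads of its library, so fewer cells of an ASV and more cells of other bacteria cannot be told apart.

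The Rank1 libraries carried 4 to 7 of the 10 ASVs (5.33 ± 1.03, SD, n = 6) and the lower ranks 2 to 7 (4.53 ± 1.43, SD, n = 19). The summed reads averaged 310.2 ± 241 in Rank1 and 387.3 ± 194 in the lower ranks. The most abundant listed ASV took 53.9 ± 17.5% of the listed reads in Rank1 and 52.3 ± 14.7% in the lower ranks. None of these 3 summaries passed an exact two-sided permutation test that enumerated all 177100 assignments of 6 libraries to Rank1 (adjusted p = 0.456, 0.456 and 0.827, adjusted over the 3 by Benjamini-Hochberg). ASV25 was the most abundant listed ASV in 3 of 6 Rank1 libraries, ASV46 in 2 and ASV621 in 1. In the lower ranks it was ASV46 in 12 of 19 libraries, ASV25 in 5 and ASV91 in 2.

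**Figure D1:**
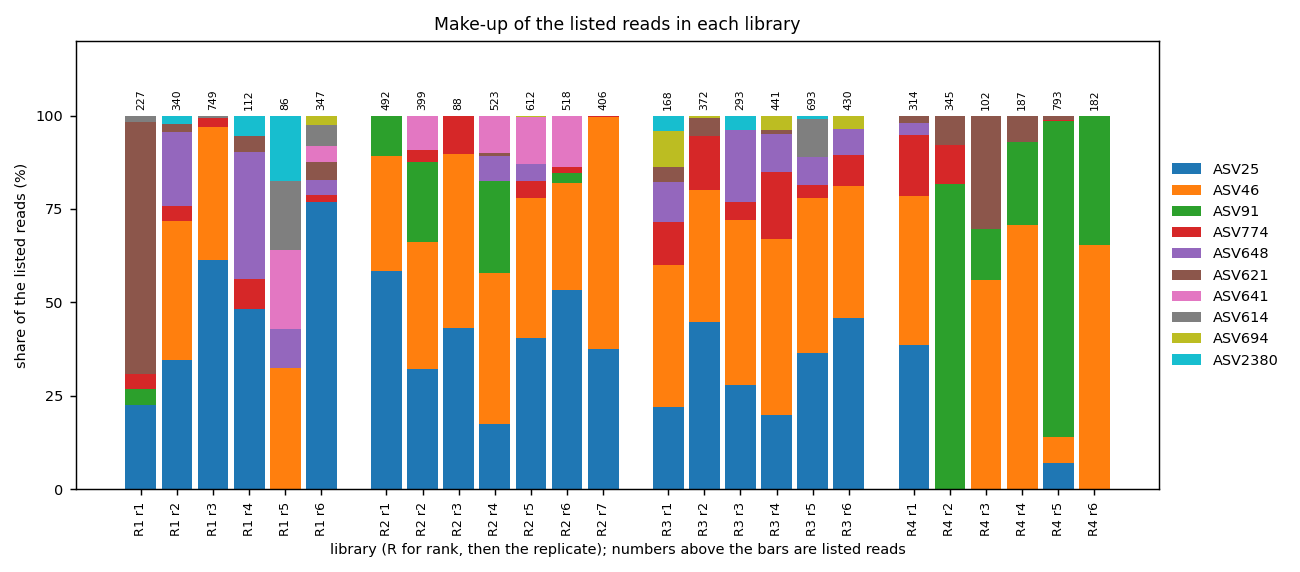
Share of the listed reads (percent, y axis) taken by each of the 10 ASVs in each of the 25 libraries (x axis, grouped by rank), with the number of listed reads above each bar. ASV25 and ASV46 together filled 22.5% to 96.9% of the listed reads in Rank1, and the largest share in Rank1 replicate 1 was that of ASV621 (67.4%).

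Per ASV, the mean was higher in Rank1 for 5 of the 10 and higher in the lower ranks for the other 5, of which ASV641 changed sign under other library scales. Carriage was more frequent in Rank1 for 7 and less frequent for 3. None of the 10 passed edgeR's quasi-likelihood test on counts at an adjusted p of 0.05 (0%), and 1 of 10 (10%), ASV91, had an unadjusted p under 0.05. The exact permutation test on ranks of the counts (midranks, where ties share their mean rank) passed 0 of 10 after adjustment (0%), and 1 of 10 (10%), ASV614, had an unadjusted p under 0.05. Fisher's exact test of carriage passed 0 of 10 after adjustment (0%), and 2 of 10 (20%), ASV614 and ASV46, had an unadjusted p under 0.05. All p-values were adjusted over the 10 listed ASVs, and a p that misses the threshold with 6 Rank1 libraries does not show that the groups are alike.

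**Figure D2:**
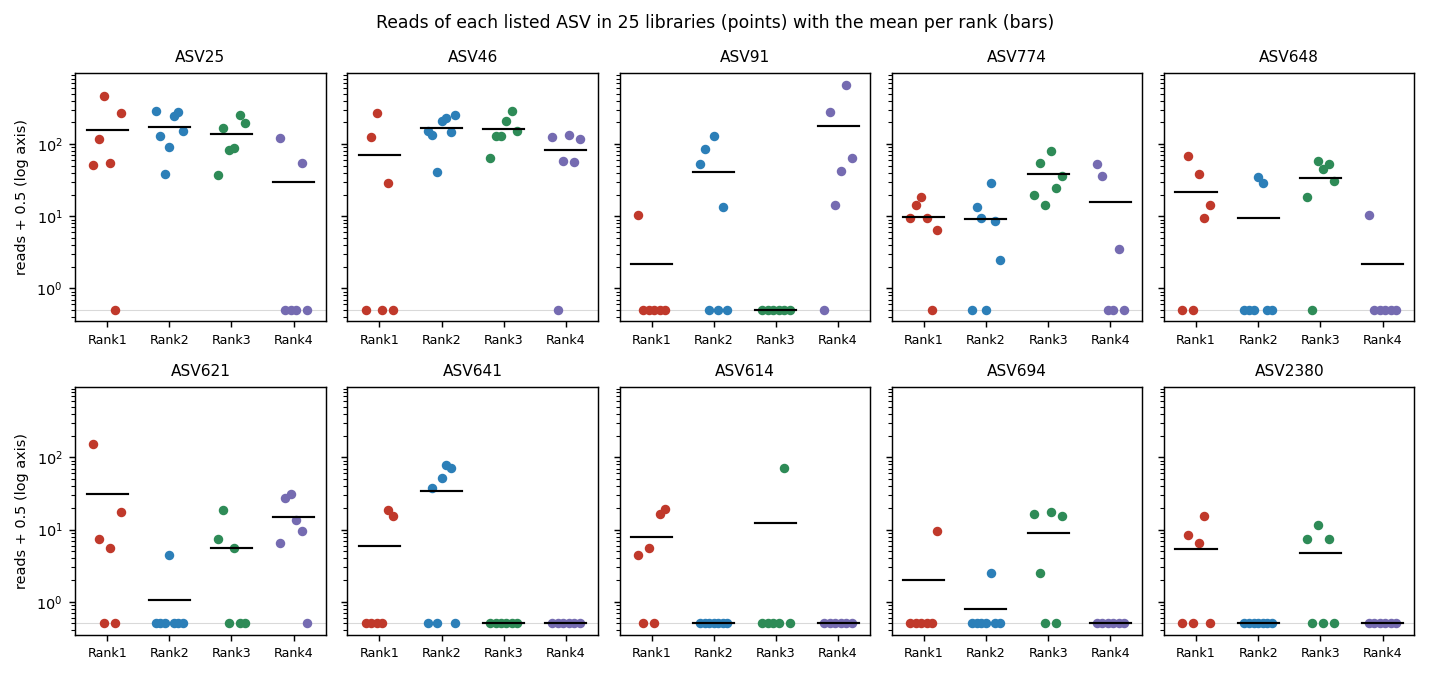
Reads + 0.5 on a log axis (y) for each ASV in each library (points) of Rank1 (n = 6), Rank2 (n = 7), Rank3 (n = 6) and Rank4 (n = 6); bars are means and points at the bottom line are libraries without a read. ASV614 has reads in 4 of 6 Rank1 libraries and in 1 library of all other ranks, and ASV46 is at 0 in 3 of 6 Rank1 libraries and in 1 lower-rank library.

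ASV614, the Oscillibacter variant, was the ASV that Rank1 carried most often relative to the other mice. Rank1 replicates 1 to 6 had 4, 0, 5, 0, 16 and 19 reads, a mean of 7.33 ± 8.19. Of the 19 lower-rank libraries 18 had no read, and Rank3 replicate 5 had 70. Carriage was therefore 4 of 6 (66.7%, exact 95% binomial interval 22.3 to 95.7%) against 1 of 19 (5.26%, interval 0.133 to 26.03%), with Fisher's exact p = 0.00548 (adjusted 0.0548). The mean midrank was 18.5 in Rank1 and 11.3 in the lower ranks, with the same exact permutation p of 0.00548 (adjusted 0.0548), and ranks of its share of the listed reads passed (exact permutation, adjusted p = 0.0440). The amount gave another picture, since the single Rank3 library set the lower-rank mean at 3.68 ± 16.1 reads, and the edgeR difference was log2 0.97 (SE 1.66, adjusted p = 0.726).

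Without Rank3 replicate 5 the lower ranks had no read of ASV614 in any of 18 libraries. Taking 3 counts per library as the floor for an ASV without reads, the Rank1 mean was then at least 2.44-fold higher. The adjusted p-values were then 4.61e-05 by edgeR's quasi-likelihood test and 0.0141 by the exact permutation test on ranks and by Fisher's exact test of carriage. The library left out is the only lower-rank carrier, so these p-values follow from its removal and show only how far the values rest on it. That library was not otherwise thin in listed reads, with 693 of them, and it also carried ASV25, ASV46, ASV648, ASV774 and ASV2380. Leaving out 1 library at a time moved the adjusted p of ASV614 to either side of the threshold. In the exact permutation test on ranks it was 0.184 without Rank1 replicate 1, 5 or 6, and 0.0918 without replicate 3. The midrank difference of ASV614 was 6.19 in each of these settings. The adjusted p was lower without replicate 3 because ASV46 passed there (exact permutation, adjusted p = 0.0398). For ASV614 it was 0.0226 without replicate 2 or 4, which are the Rank1 libraries that lack ASV614. Leaving out a whole rank gave 0.217 without Rank2, 0.0387 without Rank3 and 0.141 without Rank4 (exact permutation, adjusted p). Fisher's exact adjusted p for carriage was 0.0141 to 0.184 without 1 library, and 0.663 where carriage needed 10 reads. It was 0.0494 without Rank4 replicate 2 and 0.0649 without Rank4 replicate 1, at the same carriage difference of 61.1 points. Neither library has ASV614. The value moved because the Benjamini-Hochberg step is shared with ASV46, whose Fisher's exact adjusted p was also 0.0494 without Rank4 replicate 2. The 6 counts of ASV614 in Rank1 were equal in the table of the other experiment.

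ASV46 was carried by nearly every lower-rank library and by fewer of the Rank1 libraries. Rank1 replicates 1 to 6 had 0, 126, 267, 0, 28 and 0 reads (70.2 ± 108, SD, n = 6). The lower ranks ranged from 0 to 287 reads with a median of 132 (138.2 ± 75.2, SD, n = 19). Of the Rank1 libraries 5 of 6 lay below that median, and the ranges overlapped, with 18 of 19 lower-rank libraries inside the Rank1 range. Carriage was 3 of 6 (50%, interval 11.8 to 88.2%) against 18 of 19 (94.7%, interval 74.0 to 99.9%), with Fisher's exact p = 0.0312 (adjusted 0.156). The difference in midrank had an exact permutation p of 0.0600 (adjusted 0.233), and edgeR gave log2 -0.98 (SE 1.23, adjusted p = 0.726). By limma on centred log-ratios the difference was -3.81 and passed (adjusted p = 0.0264). Rank1 replicate 3 held 63.4% of the Rank1 reads of ASV46. Without it the Rank1 mean was 30.8 reads and the adjusted exact permutation p on ranks 0.0398. Without Rank4 replicate 2, the only lower-rank library that lacked ASV46, Fisher's exact adjusted p for carriage was 0.0494. Both libraries hold an extreme value of their group, so these p-values show how far the result rests on them and add no support.

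ASV25, the most abundant ASV in Rank1, did not share that pattern. Rank1 replicates 1 to 6 had 51, 118, 459, 54, 0 and 267 reads (158.2 ± 174), and the lower ranks ranged from 0 to 288 with a median of 92 (117.1 ± 98.5). Carriage was 5 of 6 against 15 of 19 libraries, and no test separated the groups (edgeR log2 0.43, SE 1.18, adjusted p = 0.726; exact permutation test on ranks, adjusted p = 0.974). Its direction turned without Rank1 replicate 3, where the edgeR value was log2 -0.26 (adjusted p = 0.847) and the Rank1 mean 98.0 reads. The 4 lower-rank libraries without ASV25 were all of Rank4.

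The joint carriage of ASV25 and ASV46 was described after the values were seen, with no test. Among Rank1 libraries 2 of 6 carried both ASVs, 3 carried ASV25 without ASV46 and 1 carried ASV46 without ASV25. In Rank2 all 7 libraries carried both, and in Rank3 all 6 did. In Rank4, 2 of 6 carried both, 3 carried ASV46 without ASV25 and 1 carried neither. ASV25 without ASV46 was seen in 0 of 19 lower-rank libraries.

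ASV91 had the largest fitted difference. Rank1 replicate 1 had 10 reads and the other 5 Rank1 libraries none (1.67 ± 4.08, SD, n = 6). The lower ranks ranged from 0 to 670 reads (71.1 ± 161, SD, n = 19), with reads in 9 of 19 libraries, 4 of Rank2 and 5 of Rank4. All 9 of these exceeded the highest Rank1 library. The lower-rank mean was 42.7-fold the Rank1 mean, or 22.7-fold without Rank4 replicate 5, which held 49.6% of the lower-rank reads. edgeR gave log2 -5.31 (SE 2.14, unadjusted p = 0.0158, adjusted p = 0.158). In carriage, 1 of 6 against 9 of 19, the difference had Fisher's exact p = 0.345 (adjusted 0.757), and the rank test gave an exact permutation p of 0.115 (adjusted 0.288). All 6 Rank3 libraries lacked ASV91, so Rank1 and Rank3 were both low. Without Rank1 replicate 1, the only Rank1 carrier, the Rank1 libraries had no read and the lower-rank mean was at least 23.7-fold higher by the same floor of 3 counts. The edgeR adjusted p was then 0.0224, a value that follows from removing the carrier and adds no support. It was 0.0267 without Rank3 replicate 5, a library that has no ASV91 itself (edgeR unadjusted p = 0.00533). That adjusted p was lowered by the ASV614 call of the same fit, which follows from removing the lower-rank carrier of ASV614. It therefore adds no support either. ASV91 did not pass edgeR in the other 23 fits that left out 1 library.

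ASV2380 and ASV621 had higher means in Rank1, each with overlapping ranges. ASV2380 had 0, 8, 0, 6, 15 and 0 reads in Rank1 replicates 1 to 6 (4.83 ± 6.08) and at most 11 in the lower ranks (1.32 ± 3.22). It was carried by 3 of 6 Rank1 and 3 of 19 lower-rank libraries, and those 3 were all of Rank3. The difference did not pass by edgeR (log2 1.78, SE 1.46, adjusted p = 0.726) or by the exact permutation test on ranks (p = 0.0698, adjusted 0.233). ASV621 had 153, 7, 0, 5, 0 and 17 reads in Rank1 (30.3 ± 60.4) and 0 to 31 in the lower ranks (6.32 ± 9.52). It was carried by 4 of 6 Rank1 and 9 of 19 lower-rank libraries. Its edgeR value of log2 2.24 (SE 1.47, adjusted p = 0.661) rested on Rank1 replicate 1, which held 84.1% of the Rank1 reads. Without that library the value was -0.12 (edgeR adjusted p = 0.945) and the Rank1 mean 5.80 reads, below the lower-rank mean.

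ASV648 also turned with 1 library. It had 0, 67, 0, 38, 9 and 14 reads in Rank1 (21.3 ± 26.4) and 0 to 57 in the lower ranks (14.5 ± 20.2), carried by 4 of 6 and 8 of 19 libraries. The edgeR difference was log2 0.56 (SE 1.58, adjusted p = 0.726), and -0.24 without Rank1 replicate 2 (adjusted p = 0.894). The lower ranks were themselves unlike for ASV648, with means of 9, 33.7 and 1.67 reads in Rank2, Rank3 and Rank4.

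The remaining ASVs had higher means in the lower ranks. ASV774 was widely carried, with 9, 14, 18, 9, 0 and 6 reads in Rank1 (9.33 ± 6.25) and 0 to 79 in the lower ranks (19.8 ± 22.6), and 8 of 19 lower-rank libraries exceeded every Rank1 library. Its carriage ran the other way, 5 of 6 against 14 of 19 libraries, and the edgeR difference was log2 -1.08 (SE 1.58, adjusted p = 0.726). ASV641 had reads in Rank1 replicates 5 and 6 (18 and 15) and in 4 lower-rank libraries (37 to 77 reads), all of Rank2. Its edgeR value of log2 -1.17 (SE 1.92, adjusted p = 0.726) changed sign under other library scales, to 0.39 with TMM, 0.49 with TMMwsp and 0.77 with the listed totals as library size (adjusted p = 0.918, 0.783 and 0.657 by edgeR), and to 0.22 by limma on centred log-ratios. ASV694 had 9 reads in Rank1 replicate 6 and none in the other Rank1 libraries, against 5 of 19 lower-rank libraries with 2 to 17 reads, 4 of them of Rank3 (edgeR log2 -0.82, SE 1.71, adjusted p = 0.726). Without Rank1 replicate 6, the only Rank1 carrier, the fitted value of ASV694 was log2 -4.52 (edgeR adjusted p = 0.173). The Rank1 libraries were then all at 0 and the lower-rank mean of 2.74 reads is below the floor of 3 counts, so no fold is given.

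**Figure D3:**
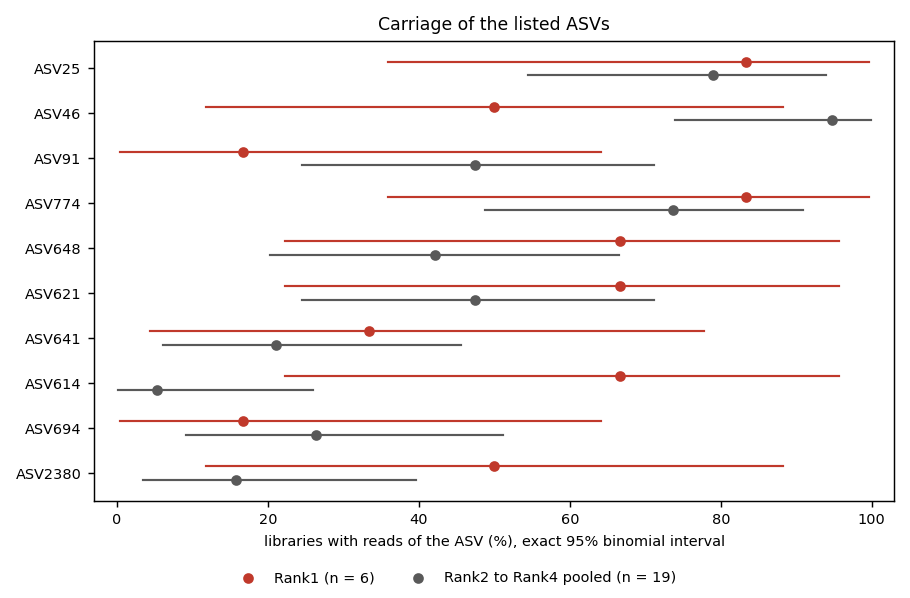
Percent of libraries with reads of each ASV (x axis) in Rank1 (red, n = 6) and in Rank2 to Rank4 pooled (grey, n = 19); lines are exact 95% binomial intervals, which cover the sampling of libraries only. The widest gaps are those of ASV614 (66.7% against 5.26%) and ASV46 (50% against 94.7%), and the intervals of every ASV overlap.

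Ratios between ASVs of the same library were compared next. Where both ASVs have reads such a ratio does not depend on depth, but where 1 of them is at 0 it rests on the added 0.5 and moves with the reads of the library. For each of the 45 pairs, log2 of (first + 0.5) over (second + 0.5) was compared by an exact two-sided permutation test, adjusted over the 45. Of these, 2 pairs (4.44%) passed, and 10 pairs (22.2%) had an unadjusted p under 0.05. The ratio of ASV46 to ASV614 had the smallest p. On the log2 scale its mean was 0.99 ± 5.06 in Rank1 and 7.22 ± 2.32 in the lower ranks, a difference of -6.23 (exact permutation p = 0.000791, adjusted 0.0356). Rank1 replicates 1 to 6 had log2 ratios of -3.17, 7.98, 5.60, 0, 0.79 and -5.29, and the lower-rank values had a median of 8.04, above all 6. The groups overlapped, with 8 of 19 lower-rank libraries at or below the highest Rank1 value.

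The ratio of ASV46 to ASV2380 also passed, with log2 means of 1.69 ± 4.35 in Rank1 and 6.94 ± 2.39 in the lower ranks (difference -5.25, exact permutation p = 0.00173, adjusted 0.0390). The other ratios of smallest p did not pass. ASV46 over ASV648 differed by log2 -5.02 (exact permutation, adjusted p = 0.121), ASV91 over ASV614 by -5.12 (adjusted p = 0.142) and ASV25 over ASV46 by 4.22 (adjusted p = 0.142). ASV46 is part of 4 of these 5 pairs and ASV614 of 2, so they are not separate results. The ratios are mostly a reading of carriage, since ASV46 and ASV614 had reads together in 2 Rank1 libraries and 1 lower-rank library.

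Both passing pairs rested on few libraries. ASV46 over ASV614 lost its call without Rank1 replicate 1, 4 or 6 (exact permutation, adjusted p = 0.123, 0.116 and 0.123). ASV46 over ASV2380 lost it without any Rank1 library other than replicate 3 (exact permutation, adjusted p = 0.0566 to 0.159). On midranks in place of log-ratios the adjusted exact permutation p was 0.0892 and 0.269. Both log-ratios spread more widely in Rank1 (SD 5.06 and 4.35) than in the lower ranks (SD 2.32 and 2.39). A permutation test of means can respond to such a difference in spread, so the p-values of both pairs do not show a shift alone. The number of passing pairs was 4 without Rank1 replicate 3 and 4 without Rank3 replicate 5.

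**Figure D4:**
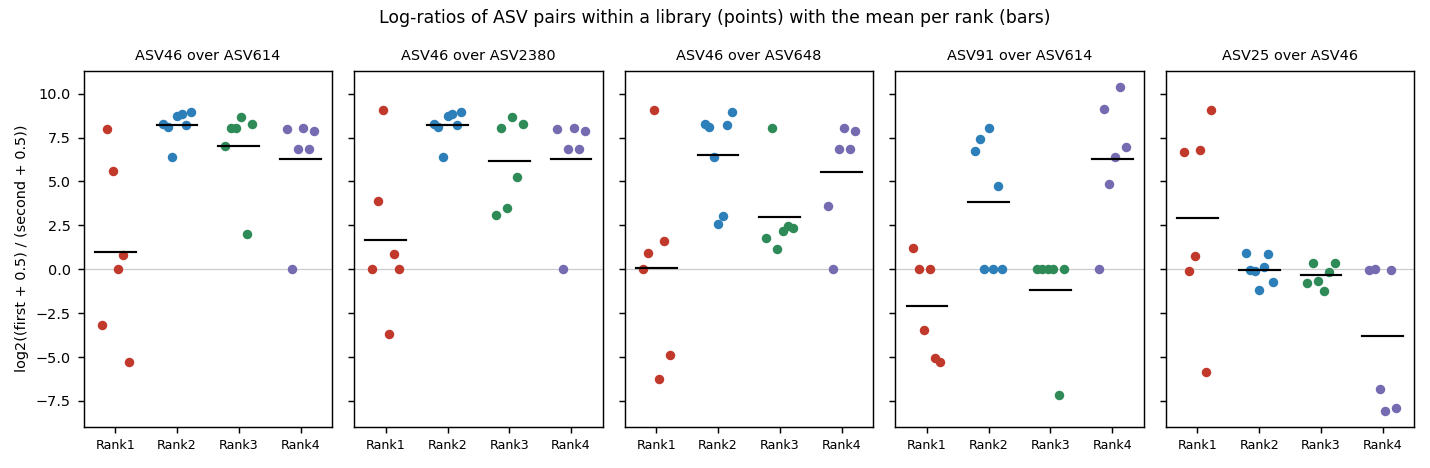
Log2 ratios of the 5 ASV pairs of smallest p (y axis, with 0.5 added to each count) in each library (points) by rank, with the mean (bars); 0 also marks libraries with neither ASV. For ASV46 over ASV614 the Rank1 mean is 0.99 and the means of Rank2, Rank3 and Rank4 are 8.21, 7.01 and 6.26.

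Rank1 was also set against each lower rank in turn. These 3 comparisons share the Rank1 libraries, so their values stand side by side and are not independent. Of 30 exact permutation tests on ranks 0 passed after adjustment over the 30 (0%), and 4 (13.3%) had an unadjusted p under 0.05. With 6 libraries against 6 the smallest possible p is 0.00216, so 1 such test alone could not pass (adjusted 0.0649). ASV774 was lower in Rank1 than in Rank3, which averaged 37.7 ± 24.8 reads (exact permutation p = 0.00649, adjusted 0.195), while Rank2 and Rank4 averaged 8.57 and 15.2. ASV91 averaged 178.5 ± 262 reads in Rank4 (exact permutation p = 0.0152, adjusted 0.210) and 40.0 ± 51.1 in Rank2 (p = 0.103, adjusted 0.289). ASV614 was at 0 in all 7 Rank2 libraries (exact permutation p = 0.0210, adjusted 0.210) and in all 6 of Rank4 (p = 0.0606, adjusted 0.269). With 0 carriers of 7 and of 6, exact 95% binomial intervals still allow carriage of up to 41.0% and 45.9%. In Rank3, 1 library of 6 carried ASV614, and the mean of 11.7 reads was above the Rank1 mean of 7.33. The mean midrank was higher in Rank1 than in Rank3 (difference 2.33, exact permutation p = 0.242, adjusted 0.475). ASV621 averaged 0.571 reads in Rank2 (exact permutation p = 0.0373, adjusted 0.269). Against Rank3 and Rank4 the exact permutation p of ASV621 was 0.567 and 0.582 (adjusted 0.748 for each). In Rank4, 5 of 6 libraries carried ASV621 against 4 of 6 in Rank1, and the midrank difference was -1.33.

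For ASV46 the Rank1 mean lay below all 3 lower-rank means, which were 166.7 ± 71.1, 161.7 ± 76.7 and 81.5 ± 52.4 reads in Rank2 to Rank4 (exact permutation adjusted p = 0.269, 0.269 and 0.747). Its place below Rank4 also rested on single libraries. Without Rank1 replicate 1, 4 or 6, each at 0 reads, the Rank1 mean of ASV46 was above that of Rank4. For ASV621 and ASV2380 the Rank1 mean lay above all 3, in each case through 1 library. Without Rank1 replicate 1 the Rank1 mean of ASV621 was 5.80 reads, below the Rank4 mean of 14.3, and without Rank1 replicate 5 that of ASV2380 was 2.80 reads, below the Rank3 mean of 4.17. For the other 7 ASVs the Rank1 mean fell within the range of the lower-rank means. ASV25 averaged 174.9 ± 97.1, 137.3 ± 81.7 and 29.3 ± 50.0 reads in Rank2 to Rank4, so its pooled mean of 117.1 describes none of the 3 ranks closely. ASV641 averaged 34.0 ± 34.4 reads in Rank2 and had none in Rank3 and Rank4, and ASV2380 averaged 4.17 ± 4.79 in Rank3 and had none in Rank2 and Rank4.

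**Figure D5:**
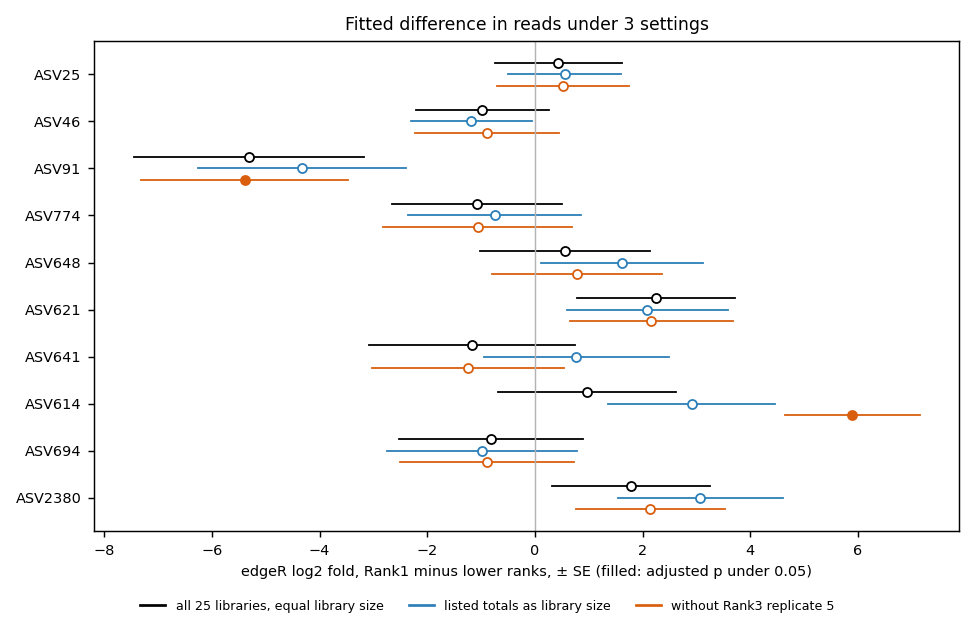
Fitted edgeR difference between Rank1 and the pooled lower ranks (log2, x axis, ± SE) for each ASV with all 25 libraries at equal size (black), with the listed totals as library size (blue) and without Rank3 replicate 5 (orange); filled points have an adjusted p under 0.05. ASV614 goes from 0.97 to 5.90 when that library, its only lower-rank carrier, is left out, and ASV641 changes sign with the listed totals.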

How the data were processed

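Per the labels' protocols, DNA of colon contents was amplified by PCR and sequenced in paired reads on an Illumina instrument; how the reads were primed and denoised and how the authors picked these ASVs was not given in the sources used here. The authors deposited raw read counts per ASV and library. In the second table, a deposited column named as a percentage holds a fraction of 1, with 480358 reads over 12 libraries as the common total. That table served only for the name of ASV614, its counts, this total and the least depth of Rank1 libraries.

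Columns were matched to samples by library name and groups taken from the titles. The 66 library pairs of 1 rank all differed by chi-square (largest p = 0.00056), which covers counting error only, as do floors. The test was edgeR 4.0.16's quasi-likelihood test (R 4.3.3) on Rank1 against the pooled lower ranks, with equal library sizes, because factors from chosen ASVs would follow those that differ. ASVs under 10 reads in all, or with reads in fewer than 4 libraries, would have been left out, and 0 of 10 were. SE is the log2 value over the root of F. Exact tests used SciPy 1.17.1 and NumPy 2.4.6, two-sided. Thresholds were adjusted p-values of 0.05 (Benjamini-Hochberg). The text names all 10 ASVs and, of the ratios, those that passed or, with fewer than 5, the 5 of smallest p. Code was tested on simulated data. For edgeR the pass limits were set only on simulated counts of low spread, not at the spread fitted to these data. Alternatives were TMM, TMMwsp, listed totals, DESeq2 1.42.0, limma 3.58.1 on centred log-ratios (pseudocount 0.5), other filters, a replicate block, rank groups and left-out libraries. The comparison, its members and its tests were chosen with earlier results of these data known, and the ASVs were chosen by the authors, so the results are not independent evidence.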

Additional observations from a re-analysis of the deposited data

Results flagged for a closer look

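A gap test placed 1 library apart from its group in 16 of the 64 groups of values tested. By chance about 1 in 20 groups of normal values would be placed so, and these values are not normal. Of the 16, 6 are ASVs with reads in only 1 library of the rank. In Rank1 the libraries were replicate 1, with 153 reads of ASV621 and 10 reads of ASV91, and replicate 6, with 9 reads of ASV694. In Rank2, replicate 4 stood apart for ASV621 (4 reads), replicate 5 for ASV694 (2 reads) and replicate 3 for its listed reads (88) and for the log2 ratios of ASV46 to ASV614 and to ASV2380 (6.38 each). In Rank3, replicate 5 stood apart for ASV614 (70 reads), ASV46 over ASV614 (log2 2.03) and ASV91 over ASV614 (log2 -7.14), and replicate 2 for ASV46 over ASV648 (log2 8.04). In Rank4, replicate 1 stood apart for ASV648 (10 reads), replicate 5 for its listed reads (793) and replicate 2, which has neither ASV of the pair, for ASV46 over ASV614 and over ASV2380 (log2 0 each).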

How the results depend on the processing

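Under all alternatives, 1367 of 1440 values for single ASVs, pairs and summaries neither reversed nor changed their side of the threshold. Differences that fell to 0 were counted among these, as for the carriage of ASV25 and for ASV91 against Rank3. The cause of the changes below was not tested unless stated. The number of ASVs past the edgeR test, 0, became 2 without Rank3, 3 with rank groups averaged on the log scale (a fit whose values depend on the prior count where a rank has no read) and 1 by limma, and 0 to 2 without 1 library. The rank test passed 1 ASV without Rank3 and 1 on shares of listed reads, and 0 to 1 without 1 library. The carriage test passed 1 without Rank3 and 0 to 2 without 1 library. The 2 passing log-ratio pairs became 0 without Rank2, 7 without Rank3, 0 on midranks and 1 in libraries with reads of the pair, and 0 to 4 without 1 library. With a replicate block edgeR again called 0 ASVs (ASV614 log2 4.13, adjusted p = 0.0580). Of the same-numbered library pairs 6 of 18 correlated above 0.1, against 38 of 96 differently numbered pairs. These correlations rest on a few chosen ASVs, so they cannot decide whether equal replicate numbers mark a shared cage or group.

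Directions that reversed were these. For ASV641 the log2 count was 0.39 with TMM, 0.49 with TMMwsp, 0.77 with listed totals, 0.22 by limma and 2.79 with rank groups (adjusted p = 0.0335), and ASV694 had 1.10 with rank groups. Midrank differences became -1.46 for ASV25 without Rank4, 1.83 for ASV774 without Rank3, -0.73 for ASV641 without Rank3 or Rank4 and 0.97 for ASV694 without Rank3. Carriage differences became -16.7 points for ASV25 and -1.28 for ASV774 without Rank4, -19.3 for ASV774 at 10 reads, and for ASV694 8.97 without Rank3 and 0.877 at 3 reads. The share of the most abundant listed ASV differed by -1.01 points without Rank2 and -2.46 without Rank3, against 1.59.

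Leaving out 1 library at a time, log2 counts ran from -0.26 to 0.70 for ASV25, -0.24 to 0.82 for ASV648 and -0.12 to 2.59 for ASV621. Midrank differences ran from -1.64 to 2.65 for ASV25 and -0.63 to 1.33 for ASV641, and the carriage difference of ASV641 from -1.05 to 18.9 points. Against single ranks, without 1 Rank1 library, midrank differences ran from -0.86 to 0.51 for ASV694 (Rank2), -1.47 to 0.73 for ASV25 (Rank3) and -0.92 to 0.73 for ASV2380 (Rank3). The top share ran from -3.01 to 5.86 points. True depth per library was not used here and limits every count.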
